A study of Danio rerio with 6 samples.

Results

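The genes of serine synthesis and of the response to amino acid shortage were examined in cd41-positive cells of zebrafish embryos. They were phgdh, psat1, psph, shmt2, mthfd2, asns, slc7a11, slc3a2a, chac1 and atf4a, chosen by name. The choice was made with earlier results of these data known, so counts of these genes beside shares of all genes are description. The identifier of 9 of these 10 genes has a row among the 32105 genes of the count table, and the level of atf4a was not analysed here. The 9 genes were measured by RNA-seq in ddx41 mutants and in wildtypes, 40 hours after fertilization, with 3 libraries per genotype. The sample titles of both genotypes carry the name cd41gfp, which stands for a GFP reporter of cd41. DDX41 belongs to the DEAD-box helicases, which unwind RNA, and mutations of the human gene predispose to myeloid leukaemia. The title of the series calls the fish set against the mutants siblings, while their genotype label is wildtype. The labels do not name the mutant allele and do not say whether libraries came from separate clutches, pools or sorts. The p-values therefore measure only the spread between these libraries.

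Serine is made from an intermediate of glycolysis by the enzymes PHGDH, PSAT1 and PSPH in turn. SHMT2 and MTHFD2 then pass its side-chain carbon to folate inside mitochondria, which feeds nucleotide synthesis. When amino acids run short in mammalian cells, stress kinases phosphorylate the initiation factor eIF2, most translation slows and the transcription factor ATF4 is made. ATF4 is known in mammals to activate the genes of serine synthesis, of asparagine synthesis and of amino acid uptake, among them most of those examined here. In red blood cell precursors of mammals, the stress kinase HRI couples this response to the supply of haem.

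In the mutants, phgdh and slc7a11 fell, to levels 4.09-fold and 2.97-fold below wildtype. The other 7 genes did not pass the test, with fold changes between 3.90-fold lower for psph and 2.08-fold higher for shmt2. Thus 2 of 9 genes were lower and 0 were higher (edgeR quasi-likelihood test with Benjamini-Hochberg adjustment over all genes, adjusted p below 0.05), where 1.99% of the 18722 genes tested were lower, 3.34% higher and 5.33% either. Among the 8858 genes at least as abundant as psph, the least abundant of the 9, these shares were 3.06% lower and 5.11% higher. An unadjusted p below 0.05 was reached by 5 of the 9, and by 22.8% of all genes tested. DESeq2 called 3 lower and 0 higher, and limma voom 5 lower and 1 higher. Both methods also called more of all genes tested than edgeR, in both directions, as given in the last section. The median log2 fold change of the 9 genes was -0.75, against 0.02 over all genes tested. When mutant replicate 2 or 3 or wildtype replicate 2 was left out, 0 of the 9 were lower, and without wildtype replicate 3 only phgdh was, while the numbers of all genes called also dropped in those fits.

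The mutant and wildtype libraries did not overlap in 6 of the 9 genes, all lower in the mutants, where 13.4% of all genes tested were lower, 15.3% higher and 28.7% either without overlap. These 6 were phgdh, psat1, psph, slc7a11, slc3a2a and chac1. The libraries overlapped for shmt2, mthfd2 and asns. Levels are given in CPM, the count of a gene relative to the library's total count after TMM scaling.

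**Figure D1:**
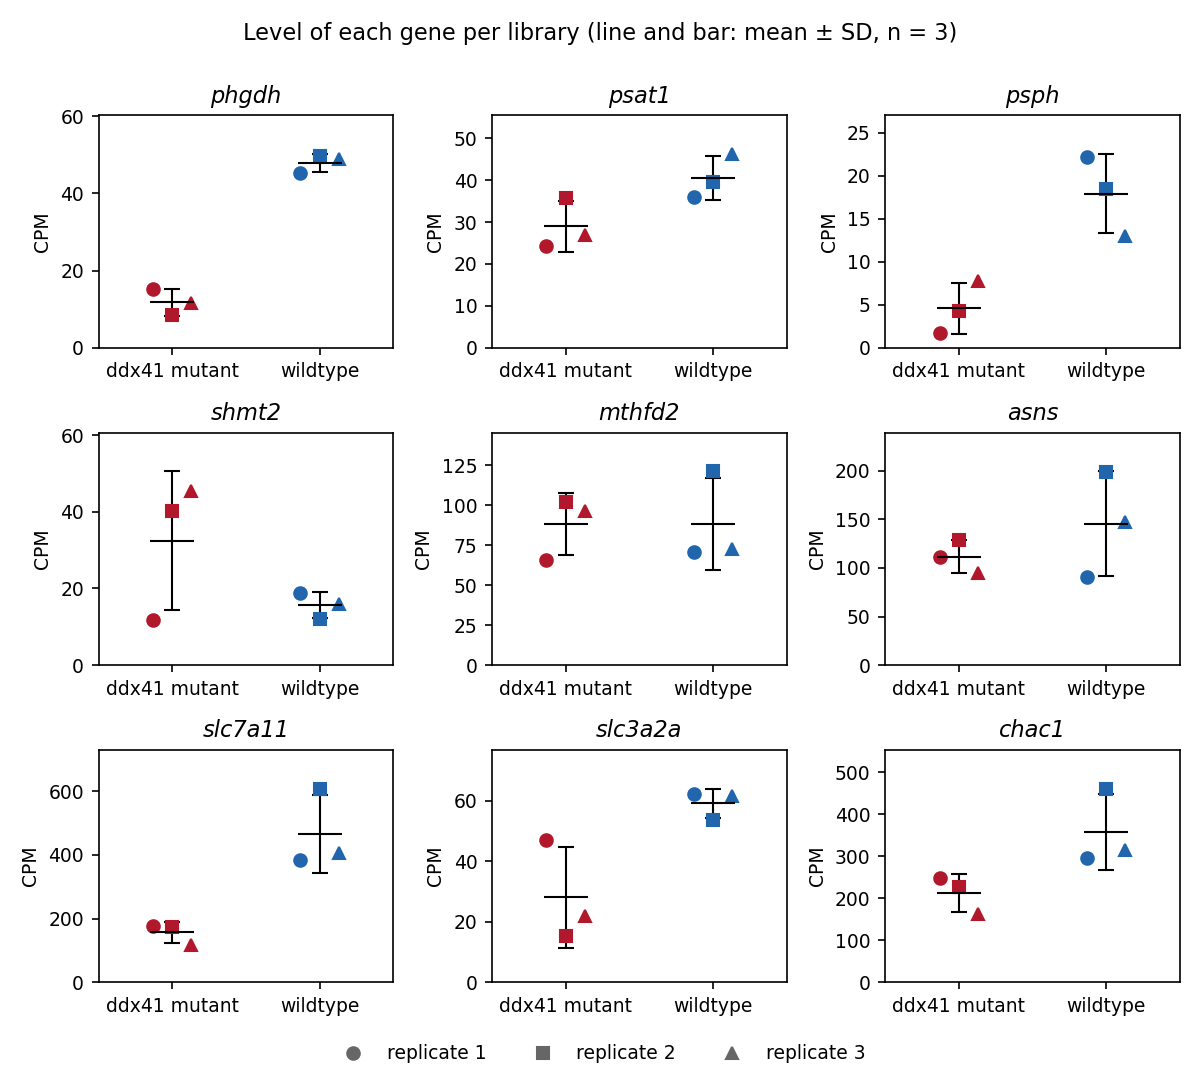
Level of each of the 9 genes in CPM (vertical axes, each starting at 0) in the 3 ddx41 mutant and the 3 wildtype libraries, with the mean and SD. The mutant points of phgdh lie between 8.40 and 15.2 CPM, all below the wildtype points between 45.3 and 49.6 CPM, while those of mthfd2 and asns overlap.

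The gene phgdh (ENSDARG00000001873, chromosome 9, 48488541 to 48516821, minus strand, GRCz10) encodes phosphoglycerate dehydrogenase, which takes the first step of serine synthesis. It held 192, 130 and 181 counts in mutant replicates 1, 2 and 3, against 858, 799 and 946 counts in wildtype replicates 1, 2 and 3. In the same order of libraries its level was 15.2, 8.40 and 11.5 CPM in mutants and 45.3, 49.6 and 48.9 CPM in wildtypes. Every mutant library was thus far below every wildtype library, and the wildtype libraries lay close together. The mean was 11.7 ± 3.42 CPM in mutants and 47.9 ± 2.31 CPM in wildtypes (mean ± SD, n = 3 each; log2 fold change -2.03 ± 0.30 SE, edgeR adjusted p = 0.0109). Of all genes tested, 3.56% had a fold change as low or lower. Leaving out mutant replicate 2, mutant replicate 3 or wildtype replicate 2 ended the call (edgeR adjusted p = 0.0525, 0.0596 and 0.0752), with log2 fold changes between -2.28 and -1.84 over all 6 fits that left out a library.

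The gene psat1 (ENSDARG00000016733, chromosome 5, 68713689 to 68727260) encodes phosphoserine aminotransferase, the enzyme of the middle step. It stood at 24.3, 35.9 and 26.8 CPM in mutant replicates 1, 2 and 3, against 35.9, 39.5 and 46.3 CPM in wildtype replicates 1, 2 and 3. The highest mutant library and the lowest wildtype library were separated by only 0.0437 CPM. Its log2 fold change was -0.48 ± 0.27 (SE; 95% interval -1.09 to 0.13, edgeR adjusted p = 0.331).

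The gene psph (ENSDARG00000040314, chromosome 15, 504337 to 510804) encodes phosphoserine phosphatase, which releases serine in the last step. It was the least abundant of the 9 genes in mutants, with 22, 66 and 121 counts in mutant replicates 1, 2 and 3, against 421, 298 and 252 counts in wildtype replicates 1, 2 and 3. These were levels of 1.75, 4.26 and 7.72 CPM in mutants and 22.2, 18.5 and 13.03 CPM in wildtypes. Mutant replicate 1 was lowest and mutant replicate 3 highest among the mutants, a 4.42-fold range. The log2 fold change was -1.96 ± 0.54 (SE; 95% interval -3.18 to -0.75), and the gene missed the threshold (edgeR adjusted p = 0.0696). Without mutant replicate 3 its log2 fold change was -2.56 (adjusted p = 0.0860). Exons of psph share 268 bases, 16.5% of its exon length, with those of nipsnap2. Fragments there can be left out of both genes, so its level may be understated in all libraries. The loss was not measured.

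Beside phgdh, PSAT1 and PSPH are the other enzymes of serine synthesis, and their genes stood 1.40-fold and 3.90-fold lower without passing. The ratio of psph to phgdh within each library, both per kilobase of exon, was 0.168, 0.744 and 0.979 in mutant replicates 1, 2 and 3, against 0.719, 0.546 and 0.390 in wildtype replicates 1, 2 and 3. These ratios overlapped between the genotypes and varied more among the mutants.

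The gene shmt2 (ENSDARG00000104414, chromosome 6, 59204233 to 59235373) encodes the mitochondrial serine hydroxymethyltransferase, which splits serine into glycine and a folate-bound carbon. It stood at 11.7, 40.2 and 45.4 CPM in mutant replicates 1, 2 and 3, against 18.7, 12.0 and 16.0 CPM in wildtype replicates 1, 2 and 3. Mutant replicate 1 was below every wildtype library and the other mutant libraries were above them all. Between the genotypes the log2 fold change was 1.06 ± 0.47 (SE; 95% interval -0.01 to 2.12, edgeR adjusted p = 0.221). It was 1.45 without mutant replicate 1, where the gene passed (adjusted p = 0.0207). The summed level of 19 erythroid markers was likewise lowest among mutants in mutant replicate 1, at 11244 CPM, against 35660.5 and 33534 CPM in mutant replicates 2 and 3. In wildtype replicates 1, 2 and 3 that sum was 649, 2992 and 4440 CPM, so shmt2 was highest there in the library with the lowest sum. The part of erythroid cells in the level of shmt2 was not tested.

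The gene mthfd2 (ENSDARG00000098646, chromosome 5, 68943906 to 68960202) encodes the mitochondrial methylenetetrahydrofolate dehydrogenase that acts after SHMT2. Its level was 65.9, 102 and 96.0 CPM in mutant replicates 1, 2 and 3, against 70.5, 121 and 72.4 CPM in wildtype replicates 1, 2 and 3. The groups overlapped, at means of 88.1 ± 19.5 CPM in mutants and 88.0 ± 28.8 CPM in wildtypes (mean ± SD, n = 3 each). The log2 fold change was 0.00 ± 0.30 (SE; edgeR adjusted p = 0.998). Its 95% interval of -0.68 to 0.68 leaves room for differences of either sign. Exons of mthfd2 share 44 bases, 1.84% of its exon length, with those of mob1a.

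The gene asns (ENSDARG00000016375, chromosome 19, 26070140 to 26093779) encodes asparagine synthetase, whose mammalian gene is a standard readout of ATF4 activity. It stood at 111, 129 and 95.2 CPM in mutant replicates 1, 2 and 3, against 91.0, 199 and 147 CPM in wildtype replicates 1, 2 and 3. The lowest of all libraries was wildtype replicate 1, so the groups overlapped. Its log2 fold change was -0.38 ± 0.31 (SE; 95% interval -1.08 to 0.32, edgeR adjusted p = 0.516).

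The gene slc7a11 (ENSDARG00000071384, chromosome 14, 41519803 to 41557647) encodes xCT, the transport chain of the exchanger that imports cystine for glutathione synthesis. It held 2248, 2697 and 1854 counts in mutant replicates 1, 2 and 3, against 7272, 9790 and 7827 counts in wildtype replicates 1, 2 and 3. Its level was 178, 174 and 118 CPM in these mutants and 384, 608 and 405 CPM in these wildtypes. Each wildtype library held more than any mutant library, and wildtype replicate 2 stood above the other wildtypes. The mean was 157 ± 33.6 CPM in mutants and 465 ± 124 CPM in wildtypes (mean ± SD, n = 3 each; log2 fold change -1.57 ± 0.29 SE, edgeR adjusted p = 0.0206). The gene missed the threshold when mutant replicate 2 or 3, or wildtype replicate 2 or 3, was left out (edgeR adjusted p = 0.0856, 0.101, 0.0946 and 0.0510), with log2 fold changes between -1.69 and -1.34 over the 6 fits.

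The gene slc3a2a (ENSDARG00000036427, chromosome 7, 20272096 to 20278479) encodes a heavy chain, CD98, that carries xCT and several other amino acid transporters to the cell surface. Its level was 46.9, 15.4 and 22.002 CPM in mutant replicates 1, 2 and 3, against 62.4, 53.7 and 61.7 CPM in wildtype replicates 1, 2 and 3. All mutant libraries were lower, mutant replicate 1 by least. The log2 fold change was -1.08 ± 0.40 (SE; 95% interval -1.97 to -0.19, edgeR adjusted p = 0.148), and -1.67 without mutant replicate 1, where the gene passed (adjusted p = 0.0105). A second gene with the symbol SLC3A2 (ENSDARG00000037012), looked at because it is the paralogue, averaged 89.6 ± 6.56 CPM in mutants and 105 ± 32.6 CPM in wildtypes (mean ± SD, n = 3 each; log2 fold change -0.22 ± 0.28 SE, edgeR adjusted p = 0.689). The ratio of slc7a11 to slc3a2a per kilobase overlapped between the genotypes, at 1.27 to 3.79 in mutants and 2.06 to 3.78 in wildtypes.

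The gene chac1 (ENSDARG00000070426, chromosome 20, 28367802 to 28370372) encodes an enzyme that breaks down glutathione and is switched on by ATF4 and its partner CHOP in mammals. It stood at 249, 227 and 162 CPM in mutant replicates 1, 2 and 3, against 296, 461 and 314 CPM in wildtype replicates 1, 2 and 3. The groups did not overlap, yet the highest mutant library lay only 47.0 CPM under the lowest wildtype library. The log2 fold change was -0.75 ± 0.28 (SE; 95% interval -1.38 to -0.12), and the gene did not pass (edgeR adjusted p = 0.155).

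The levels of slc7a11 and chac1 moved together between libraries of a genotype. Per kilobase of exon, slc7a11 stood at 0.177, 0.190 and 0.181 of the level of chac1 in mutant replicates 1, 2 and 3, against 0.320, 0.326 and 0.319 in wildtype replicates 1, 2 and 3. This ratio does not depend on how the libraries are scaled. It varied by 3.69% among mutants and 1.24% among wildtypes (coefficient of variation, n = 3 each), while each gene alone varied by 21.3% to 26.5%. It did not overlap between the genotypes, as held for the ratio to chac1 of 36.2% of all genes tested. The pair was picked out after the values of all 36 pairs were seen and is given as a description. How many of all genes keep as steady a ratio to chac1 within a genotype was not counted.

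Over the 36 pairs, 15 ratios did not overlap between the genotypes. The share over pairs of all genes was not computed, so this count is description only. With phgdh 6 of 8 ratios did not overlap, where 73.3% of all genes tested did not in their ratio to phgdh. With slc7a11 it was 5 of 8, against 60.9% of all genes, and with chac1 3 of 8, against 36.2%. The ratio of shmt2 to phgdh per kilobase was 1.14, 7.10 and 5.84 in mutant replicates 1, 2 and 3, against 0.614, 0.359 and 0.487 in wildtype replicates 1, 2 and 3. The ratio of asns to slc7a11 was 1.07, 1.28 and 1.39 in these mutants and 0.409, 0.565 and 0.628 in these wildtypes. So asns stood above slc7a11 in every mutant library and below it in every wildtype library, in level per kilobase. These ratios too were picked out after the values of all 36 pairs were seen. Their denominators, phgdh and slc7a11, are the genes called lower, so the ratios are no separate result.

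**Figure D2:**
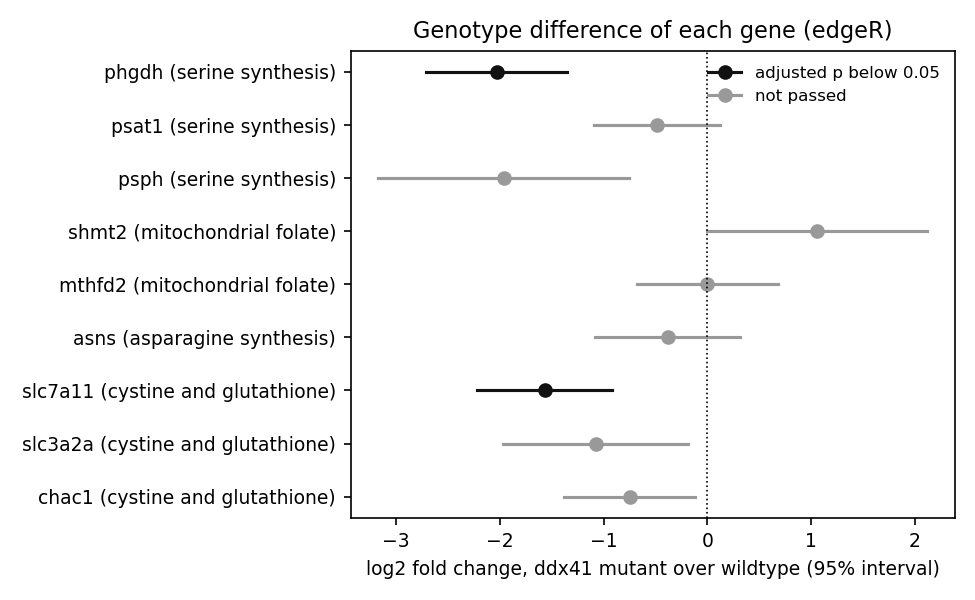
Log2 fold change of each gene, ddx41 mutant over wildtype (horizontal axis), with its 95% interval from the edgeR fit. Black marks phgdh and slc7a11, which passed at adjusted p below 0.05, and the widest intervals belong to psph and shmt2.

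**Figure D3:**
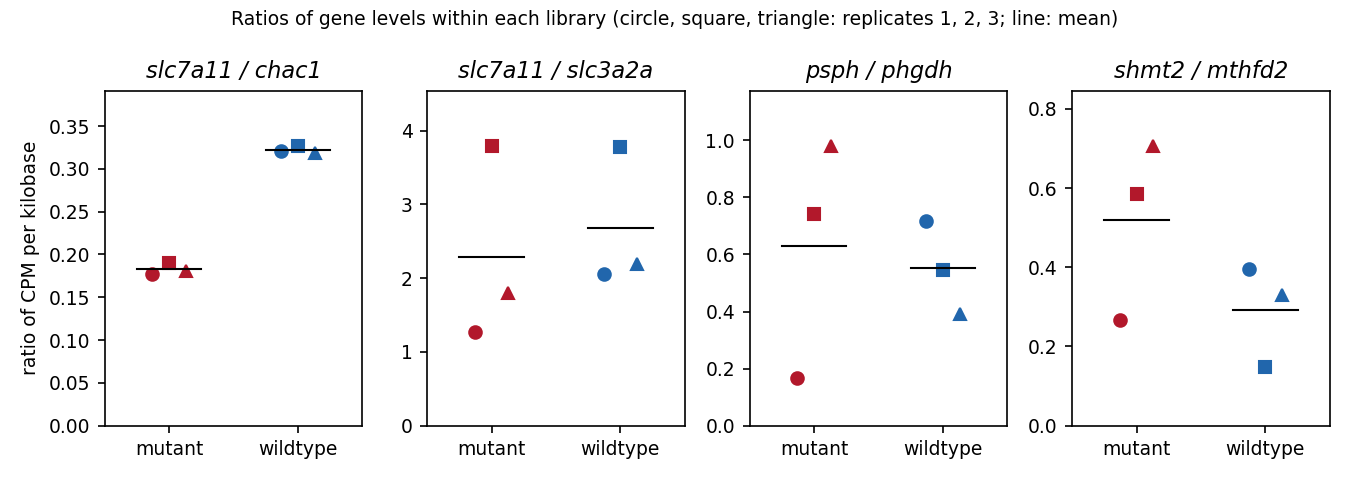
Ratios of levels per kilobase between pairs of genes within each library (vertical axes), for mutants on the left and wildtypes on the right of each panel. The ratio of slc7a11 to chac1 lies between 0.177 and 0.190 in mutants and between 0.319 and 0.326 in wildtypes, while the other 3 ratios overlap.

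The order of the genes by level was taken per kilobase of exon, so that genes of different length can be set side by side. In both genotypes chac1 was highest, at 125 ± 26.6 CPM per kilobase in mutants and 210 ± 52.9 in wildtypes (mean ± SD, n = 3 each), apart from the next gene in all libraries. In mutants the following places were held by mthfd2, asns, slc7a11, shmt2, psat1 and slc3a2a, at means of 36.9 to 12.2 CPM per kilobase, and each of these neighbours overlapped the next. Lowest were phgdh and psph, at 4.94 ± 1.44 and 2.82 ± 1.85 CPM per kilobase in mutants, which overlapped each other.

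In wildtypes slc7a11 came second, at 67.5 ± 17.9 CPM per kilobase, apart from the genes above and below it. Then came mthfd2, asns, slc3a2a and psat1, each overlapping the next, at 36.9 to 24.0 CPM per kilobase. Below these, phgdh stood apart at 20.2 ± 0.972 CPM per kilobase, and psph and shmt2 overlapped at 11.1 ± 2.85 and 9.75 ± 2.13. Among all genes tested, the level of phgdh per kilobase was at the 57.9th percentile in mutants and the 87.4th in wildtypes. For shmt2 it was at the 86.7th percentile in mutants and the 75.0th in wildtypes.

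Levels of marker genes of several cell types differed between the genotypes. Beside the counts of markers called below, 3.34% of all genes tested were higher and 1.99% lower (edgeR adjusted p below 0.05). The libraries held 14577735 to 15912260 fragments counted on genes in mutants and 17001423 to 17639699 in wildtypes. The gene for cd41, itga2b, after which the GFP reporter is named, encodes an integrin chain of stem cells and thrombocytes. Its own transcript was low in all libraries, from 2.62 to 6.44 CPM in mutants and 1.18 to 3.22 CPM in wildtypes (log2 fold change 1.15 ± 0.64 SE, edgeR adjusted p = 0.326). Of 10 tested thrombocyte markers 5 were higher and 0 lower, among them gp9 at log2 fold change 3.25 and tubb1 at 3.22, while mpl, the thrombopoietin receptor gene, stood at -2.68 without passing (edgeR adjusted p = 0.0109, 0.0244 and 0.0688). The sum of all 11 matched was 486 to 961 CPM in mutants and 382 to 797 CPM in wildtypes. These markers and those of skin below were named after their values were seen. Of 19 erythroid markers 17 were higher in mutants, and their sum was 11244 to 35660.5 CPM in mutants and 649 to 4440 CPM in wildtypes. Of 16 myeloid markers 4 were lower and 0 higher, all 16 with negative fold changes, which 49.0% of all genes tested had. Their sum was 9660 to 13125 CPM in mutants and 16145 to 32287 CPM in wildtypes. Sums of 8 lens markers were 42.7 to 163 CPM in mutants and 2.96 to 10.3 CPM in wildtypes, and 3 of the 8 held no count in wildtypes. Sums of 12 neuron and retina markers were 47.7 to 77.2 CPM in mutants and 110 to 551 CPM in wildtypes, highest in wildtype replicate 1. Of 11 tested skin and pigment markers 2 were lower and 0 higher, among them the keratin gene krt91 at log2 fold change -1.92 (edgeR adjusted p = 0.0235). Fold changes of this list were positive for 5 and negative for 6, with a median log2 fold change of -0.12. The sum of 12 was 3771 to 12436 CPM in mutants and 7834 to 10767 CPM in wildtypes. Of 10 tested blood stem and progenitor markers 0 were higher and 0 lower. Their sum was 238 to 331 CPM in mutants and 237 to 428 CPM in wildtypes. Of 13 tested endothelial markers 1 was higher and 0 lower, with a sum of 78.4 to 124 CPM in mutants and 59.1 to 92.4 CPM in wildtypes. No erythroid, myeloid or neuron and retina marker was at 0 in all libraries of a genotype. The part of this shift in the levels of the 9 genes was not tested, and fewer cells of a type and less RNA per cell cannot be told apart in these bulk samples.

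Among wildtypes, the sum of myeloid markers was lowest in replicate 1, at 16145 CPM, and highest in replicate 2, at 32287 CPM. In the same wildtype libraries phgdh, mthfd2, asns, slc7a11 and chac1 were also lowest and highest, phgdh by only 1.09-fold. This order was not particular to the myeloid sum. The thrombocyte, blood stem and progenitor, and lens sums were also lowest in wildtype replicate 1 and highest in replicate 2. The erythroid, endothelial, and skin and pigment sums were highest in wildtype replicate 3, and the neuron and retina sum in replicate 1. The share of all genes with this order was not counted. The genes shmt2 and slc3a2a ran the other way, highest in wildtype replicate 1 and lowest in wildtype replicate 2, and psph was highest in wildtype replicate 1 and lowest in replicate 3. For psat1 wildtype replicate 1 was lowest and wildtype replicate 3 highest. Among mutants the myeloid sum was highest in replicate 2, at 13125 CPM, against 9660 and 9759 CPM in replicates 1 and 3. There psat1, mthfd2 and asns were highest in mutant replicate 2, phgdh, slc7a11, slc3a2a and chac1 in mutant replicate 1, and psph and shmt2 in mutant replicate 3.

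**Figure D4:**
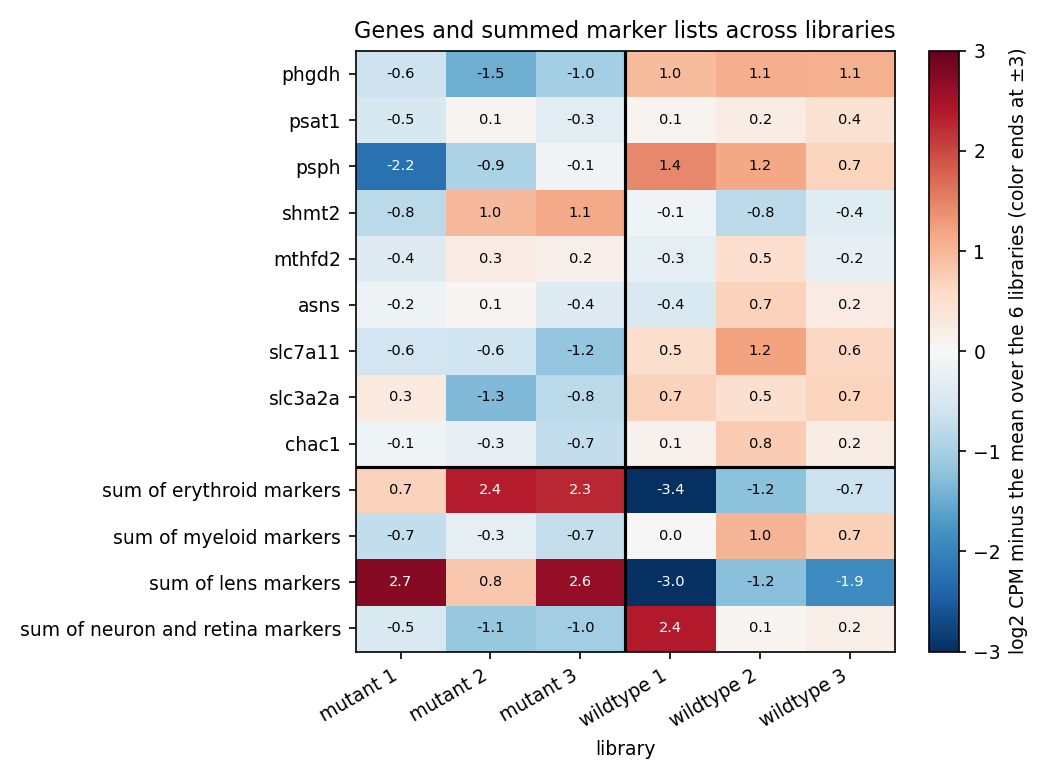
Level of each gene and summed level of 4 marker lists in each library, as log2 CPM minus the mean over the 6 libraries (color and printed value), with mutants left and wildtypes right of the vertical line. The genes phgdh and slc7a11 are low in all 3 mutants, and the erythroid sum is high in mutants with its lowest mutant value in replicate 1.

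To see whether other genes of the amino acid response differed, 9 lists of related genes were counted in the same fit. They were chosen with earlier results of these data known and matched 202 genes beside the 9, of which 194 were tested. Of these 5 were higher and 11 lower, where 3.34% and 1.99% of all genes tested were, and the median log2 fold change was -0.21. None of these 16 genes passed when mutant replicate 2 or 3 or wildtype replicate 2 was left out, so each call below depends on those libraries. Without wildtype replicate 3 only 2 did. The numbers of all genes called also dropped in those fits. Over the fits that left out a library, the lowest were 51 higher and 11 lower of all genes tested. Mutant replicate 1, which stood apart from mutant replicates 2 and 3 in its counts over all genes, was kept in each of those fits. The cause of the drop was not tested.

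Stress kinases and their regulators came first in the pathway. Of 22 tested genes 2 were higher, 0 lower and 20 did not pass, with a median log2 fold change of 0.52. Fold changes were positive for 12 and negative for 10. The kinase gene EIF2AK4 held 0 counts in all 6 libraries and so was not tested. The kinase genes EIF2AK3 and eif2ak2 stood at log2 fold changes of -0.42 and -0.12 without passing (edgeR adjusted p = 0.485 and 0.904). The kinase gene eif2ak1, which encodes HRI, averaged 120 ± 48.9 CPM in mutants and 29.0 ± 10.1 CPM in wildtypes (mean ± SD, n = 3 each; edgeR adjusted p = 0.0224). Its level was 66.7, 163 and 130 CPM in mutant replicates 1, 2 and 3, and so lowest in the mutant library with the lowest erythroid sum, 11244 CPM. In wildtype replicates 1, 2 and 3 it was 20.3, 40.1 and 26.6 CPM, beside erythroid sums of 649, 2992 and 4440 CPM. The part of erythroid cells in the level of eif2ak1 was not tested. The stress-induced chromatin protein gene nupr1a averaged 69.2 ± 29.6 CPM in mutants and 14.5 ± 8.49 CPM in wildtypes (adjusted p = 0.0279). Its log2 fold change was 2.26, and 2.85 without wildtype replicate 1. The paralogue nupr1b stood at 520, 19.5 and 16.6 CPM in mutant replicates 1, 2 and 3. In wildtype replicates 1, 2 and 3 nupr1b stood at 199, 31.3 and 66.1 CPM. Mutant replicates 2 and 3 were thus below every wildtype library for nupr1b (log2 fold change 0.91 ± 1.19 SE, edgeR adjusted p = 0.703). The ATF4 paralogue gene atf4b, looked at because atf4a was not analysed, stood at 300, 293 and 194 CPM in mutant replicates 1, 2 and 3, against 338, 436 and 278 CPM in wildtype replicates 1, 2 and 3. These groups overlapped (log2 fold change -0.42 ± 0.28 SE, edgeR adjusted p = 0.421).

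Among 16 tested genes known as ATF4 targets in mammals 0 were higher and 0 lower by edgeR, with 5 of the 16 at an unadjusted p below 0.05, where 22.8% of all genes were, and a median log2 fold change of -0.10. The smallest p belonged to MTHFD1L (ENSDARG00000042221), a gene of mitochondrial folate metabolism, with 23.7 ± 5.15 CPM in mutants and 50.0 ± 4.24 CPM in wildtypes (mean ± SD, n = 3 each; edgeR adjusted p = 0.0541). DESeq2 called 1 higher and 2 lower in this list, and limma voom 1 higher and 3 lower, and both called more of all genes tested than edgeR.

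Of 21 tested amino acid transporter genes 1 was higher, 1 lower and 19 did not pass. SLC38A5, a transporter gene for glutamine, serine and glycine, averaged 378 ± 99.0 CPM in mutants and 145 ± 18.9 CPM in wildtypes (edgeR adjusted p = 0.0260). SLC1A4, a transporter gene for alanine, serine and cysteine, averaged 9.45 ± 4.24 CPM in mutants and 32.2 ± 9.12 CPM in wildtypes (adjusted p = 0.0392; SD, n = 3 each). Mutant and wildtype libraries of both did not overlap.

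Of 19 aminoacyl tRNA synthetase genes, which load amino acids onto tRNA, 0 were higher and 0 lower by edgeR, with 3 of the 19 at an unadjusted p below 0.05, a smaller share than the 22.8% of all genes. DESeq2 and limma voom, which called more of all genes tested than edgeR, each called 1 lower and 0 higher. Negative fold changes were found for 15 of the 19, where 49.0% of all genes tested had one, and the median log2 fold change was -0.21. The smallest p belonged to WARS1, the tryptophan synthetase gene, with 6.97 ± 4.01 CPM in mutants and 20.4 ± 3.24 CPM in wildtypes (mean ± SD, n = 3 each; edgeR adjusted p = 0.0841).

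Of 31 tested genes of folate and glycine metabolism 1 was higher, 1 lower and 29 did not pass, with a median of -0.21. TYMS, a thymidylate synthesis gene that uses folate-bound carbon, averaged 156 ± 66.5 CPM in mutants and 47.8 ± 17.0 CPM in wildtypes (edgeR adjusted p = 0.0483). With library totals in place of scaling factors TYMS missed the threshold (adjusted p = 0.0630). MAT2A (ENSDARG00000040334), which encodes the enzyme that makes the methyl donor S-adenosylmethionine, averaged 171 ± 19.0 CPM in mutants and 349 ± 49.3 CPM in wildtypes (adjusted p = 0.0401; SD, n = 3 each).

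Of 28 tested genes of other amino acid synthesis and breakdown 2 were lower, 0 higher and 26 did not pass, with a median of -0.53. For BCAT1, which encodes a branched-chain aminotransferase, the 3 mutant libraries summed to 1 count and the 3 wildtype libraries to 150, a wildtype level 121 times that of mutants (95% counting interval 21.3 to 4798, edgeR adjusted p = 0.0205). The interval covers counting error only. Without mutant replicate 2 BCAT1 held no mutant count and did not pass (adjusted p = 0.0692).

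Of 23 tested genes of glutathione and oxidant defence 1 was lower, 0 higher and 22 did not pass, with a median of -0.22.

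Of 25 tested genes of protein folding in the endoplasmic reticulum 6 were lower, 0 higher and 19 did not pass. Negative fold changes were held by 23 of them and by 49.0% of all genes tested. The median log2 fold change was -0.67. PDIA3, a disulfide isomerase gene, averaged 58.7 ± 4.84 CPM in mutants and 195 ± 54.2 CPM in wildtypes (mean ± SD, n = 3 each; edgeR adjusted p = 0.0127). The calreticulin gene calr3b averaged 193 ± 27.9 CPM in mutants and 563 ± 140 CPM in wildtypes (adjusted p = 0.0178). The isomerase gene PDIA4 was at log2 fold change -1.48 ± 0.31 and the chaperone gene HYOU1 at -1.22 ± 0.26 (SE; adjusted p = 0.0295 and 0.0316). The summed level of the list was 1995 to 2194 CPM in mutants and 3212 to 5154 CPM in wildtypes, highest in wildtype replicate 2. Among wildtypes, slc7a11 and the myeloid sum of 32287 CPM were also highest in that library. The thrombocyte, blood stem and progenitor, and lens sums were highest there too. In mutant replicates 1, 2 and 3 the list summed to 2193, 2194 and 1995 CPM, and the myeloid markers to 9660, 13125 and 9759 CPM. The part of myeloid cells in these levels was not tested.

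Of 16 tested genes of mitochondrial chaperones and proteases 1 was higher, 0 lower and 15 did not pass. Positive fold changes were held by 15 and a negative one by 1, where 49.0% of all genes tested had negative ones. The median log2 fold change was 0.69. AFG3L2, a protease gene of the inner mitochondrial membrane, averaged 25.3 ± 2.77 CPM in mutants and 9.58 ± 1.12 CPM in wildtypes (mean ± SD, n = 3 each; edgeR adjusted p = 0.0295).

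**Figure D5:**
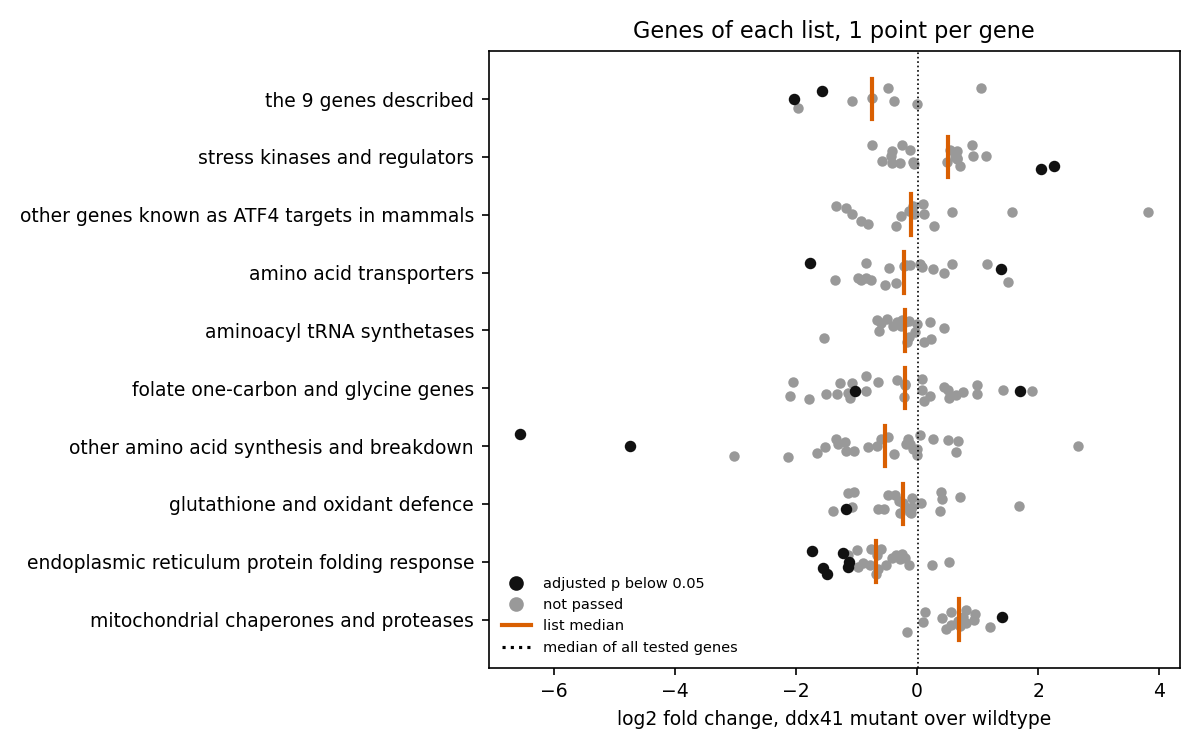
Log2 fold change, ddx41 mutant over wildtype (horizontal axis), of the 9 genes and of the tested genes of 9 related lists, with 1 point per gene, black where adjusted p was below 0.05, and the list median in orange. The medians run from -0.75 for the 9 genes to 0.69 for mitochondrial chaperones and proteases, against 0.02 for all genes tested (dotted line).

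The mean log2 level of phgdh and slc7a11, the genes that passed, was compared with that of 8791 other genes over the 6 libraries. The genes with the likest pattern were slc52a3-2b, GMPPA (ENSDARG00000023498), SIPA1, cirbpb and hmgn1b, with Pearson correlations of 0.997, 0.996, 0.995, 0.995 and 0.995. These correlations describe 6 libraries of 2 genotypes, so any gene with a steady difference between the genotypes scores high. SIPA1 averaged 22.1 ± 3.62 CPM in mutants and 80.6 ± 18.6 CPM in wildtypes, and GMPPA 18.7 ± 3.88 CPM in mutants and 50.5 ± 7.52 CPM in wildtypes (mean ± SD, n = 3 each).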

How the data were processed

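Cells positive for cd41 were isolated from embryos and polyadenylated RNA was made into libraries with a low-input protocol, per the labels' protocols. The deposited values are raw fragment counts per gene, which the authors made with featureCounts 1.5.0-p1 and Ensembl gene models, release 85, on GRCz10, per the file headers. Both mates had to map and chimeric pairs were left out. The recorded command sets neither strand, nor multiple mapping, nor overlap of genes. STAR 2.4.2a is named per the submitters' processing notes. The deposited gene length, another column, is the summed exon length.

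Tests across all genes used edgeR 4.0.16 (R 4.3.3): TMM scaling, filterByExpr (minimum count 10, minimum total 15), a genotype model, the two-sided quasi-likelihood F test and Benjamini-Hochberg adjustment. Each standard error was derived from the fold change and its F statistic. Alternatives were RLE factors, no filter, 1 CPM in 3 libraries, DESeq2 1.42.0, limma 3.58.1 voom with sample weights, a replicate block, each library left out, and, chosen after the data were seen, library totals without scaling factors. The scripts were tested on simulated data, where the edgeR fit called 5.97% of genes changed 2-fold, 43.3% changed 4-fold and 74.2% changed 8-fold. A gene that did not pass may therefore still differ.

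The members and lists were chosen with earlier results of these data known. Lists were matched by symbol ignoring case, or by orthologue symbol: of 361 entries in 17 lists, 21 were not matched and 30 were ambiguous. Named were all members, up to 4 genes per list with adjusted p below 0.05 by smallest p (otherwise the gene with the smallest p), itga2b, and the 5 genes (mean log2 CPM of at least 3) most correlated with the members that passed. Some genes that this rule names are not reported here. No 2 libraries were alike within counting noise (chi-square per degree of freedom at least 19.9). That lowest value was between mutant replicates 2 and 3, while mutant replicate 1 stood at 122 and 119 from them. Wildtype replicate 1 stood at 105 and 114 from wildtype replicates 2 and 3, which stood at 43.9 from each other.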

Additional observations from a re-analysis of the deposited data

How the results depend on the processing

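The falls of phgdh and slc7a11 passed under all 7 alternatives that kept the 6 libraries. With limma voom 5 of the 9 genes were lower and 1 higher. Leaving out a library gave 0 to 3 lower and 0 to 1 higher. For psph the log2 fold change passed without a filter (-1.99), by DESeq2 (-1.98) and by limma voom (-1.70). Limma voom also called shmt2 (1.32), slc3a2a (-1.52) and chac1 (-0.87). The sign of mthfd2 turned with RLE factors (-0.0108), without a filter (-0.0199), by DESeq2 (-0.0107) and with library totals (-0.0937), and lay between -0.13 and 0.29 without single libraries. Without single libraries the log2 fold change was -2.28 to -1.84 for phgdh, -1.69 to -1.34 for slc7a11, 0.74 to 1.45 for shmt2 and -1.67 to -0.78 for slc3a2a.

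Over all genes tested, 625 were higher and 373 lower. They were 1297 and 1168 by DESeq2 and 1460 and 1352 by limma voom, 572 were lower with library totals, and 51 to 1135 were higher and 11 to 832 lower without single libraries. Of the pathway genes, 5 higher and 11 lower, the counts were 10 and 29 by DESeq2, 15 and 39 by limma voom, 18 lower with library totals, and 0 to 9 and 0 to 23 without single libraries. Of the 16 pathway genes called, 15 were called by limma voom and 15 with library totals. Library totals moved the median of all genes by -0.14. The cause of these differences was not tested. The replicate number as a block gave 653 genes lower over all, 8 and 23 pathway genes, and called slc3a2a (-1.23, adjusted p = 0.0495). Deviations of same-numbered libraries correlated at 0.224, 0.155 and 0.0875, and each library correlated best with its own number. The labels do not say that libraries of the same number belong together, so the main fit did not take them as pairs. Whether they share an effect was not tested. In mutants psph held 22 to 121 counts and varied by 65.5% between libraries.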
